A study of Rattus norvegicus with 4 samples.

Results

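Transcript levels of 10 immediate early and AP-1 genes were examined in RNA-seq libraries of rat ear skin. The genes were Fos, Fosb, Fosl2, Jun, Junb, Jund, Egr1, Atf3, Ier2 and Nr4a1, chosen by symbol from the 54532 genes of the count table. Each symbol matched 1 row, and 8 of the 10 passed the low-count filter that left 6370 genes for testing. Atf3 and Nr4a1 did not pass and are given as counts.

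Sprague Dawley (SD) rats received AAV-Fgf7 in one ear and a control virus, labelled AAV-control, in the other. AAV is adeno-associated virus, a gene delivery vehicle, and Fgf7 encodes fibroblast growth factor 7, a mesenchymal factor that acts on epithelial cells. Skin at the injection sites was taken on day 3 from 2 rats, which gave 2 AAV-Fgf7 libraries (genotype label Fgf7 overexpression) and 2 AAV-control libraries (genotype label wt). Both groups had therefore been injected with virus, and the labels list no uninjected skin, no promoter and no age or sex. Sample titles and the series' design text give opposite ear sides, so side was not used. The ears of a rat were paired by the rat number in the titles. Both AAV-Fgf7 descriptions name the column of rat 1, so the column of rat 2 was assigned by its number, and values within a rat rest on that assignment.

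Immediate early genes are transcribed within minutes of a growth factor, stress or injury signal, without new protein synthesis. Growth factor receptors such as the FGF7 receptor act through the ERK kinases on ternary complex factors, which sit with serum response factor (SRF) on CArG boxes of these genes. Fos and Jun family proteins pair through leucine zippers to form AP-1, a transcription factor of keratinocyte proliferation, differentiation and wound response. Their transcripts usually decay quickly, so a tissue sample records the hours before it was taken.

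Library totals lay between 1299136 and 1601321 counts. Fgf7, read as the check of the labels, had 454 and 1429 counts in the AAV-Fgf7 ears of rats 1 and 2, against 94 and 110 in their control ears. Its log2 fold change was 3.18 (SE 0.54, edgeR unadjusted p = 0.00100), and at an adjusted p of 0.9996 it did not pass the edgeR test. All 10 basal keratinocyte markers had counts, as a skin label requires, whereas 5 of 10 suprabasal markers (Dsc1, Flg, Ivl, Krtdap and Sbsn) and the fibroblast markers Dcn and Lum were at 0 in all 4 libraries. The counts of these rat samples are listed under mouse gene models, and a gene listed at 0 may still have been transcribed. The share of counts on pseudogene rows was 8.64% and 9.90% in AAV-Fgf7 libraries and 9.39% and 8.33% in control libraries. Mitochondrial genes held 0.0493% and 0.0686% of counts in AAV-Fgf7 libraries and 0.0398% and 0.0366% in control libraries.

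No member of the set passed the test between AAV-Fgf7 and control ears. By edgeR's quasi-likelihood test with Benjamini-Hochberg adjustment, 0 of the 8 tested members had an adjusted p under 0.05, and the background was 0 of 6370 genes, or 0%. At an unadjusted p under 0.05 there was 1 member, Fosb, against 2.32% of all genes tested. DESeq2 called 0 of the 8 and 0.0628% of all genes tested. The log2 fold changes of the members ran from -3.06 for Fosb to 0.35 for Jund, with a median of -0.12, where the median of all genes tested was -0.020. In 1 of 8 members, Fos, both AAV-Fgf7 libraries lay below both controls, as they did in 13.3% of all genes tested. In 0 of 8 did both lie above, against 14.8% of all genes tested. In bulk tissue, fewer cells of a type and less RNA per cell cannot be told apart.

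**Figure D1:**
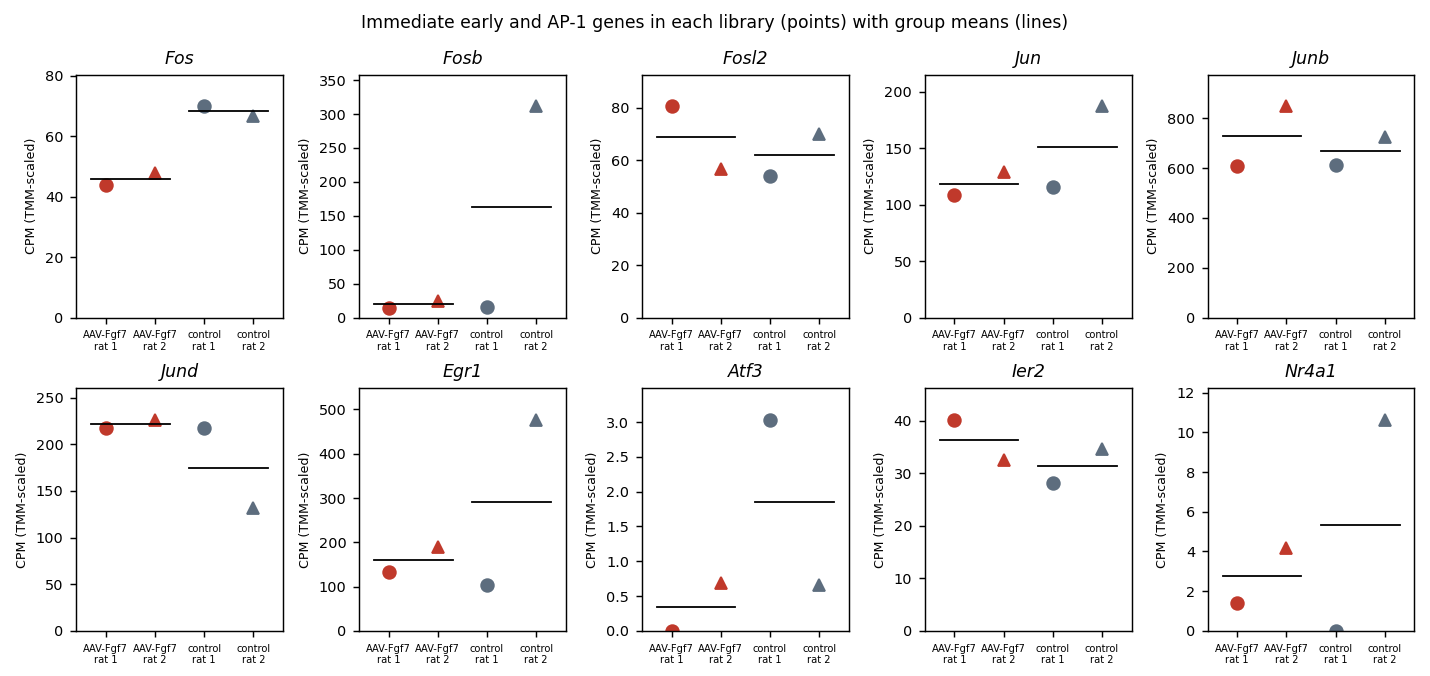
Level of each of the 10 genes in each library, as CPM (counts divided by the library total after TMM scaling) on a linear axis from 0, with AAV-Fgf7 libraries in red, control libraries in grey, circles for rat 1, triangles for rat 2 and lines for group means. The 2 groups are separate for Fos, and the control library of rat 2 stands far above the others for Fosb and Egr1.

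Fos, the founding member of the Fos family and a partner of Jun proteins, was the member whose groups did not overlap. Its level was 43.8 and 47.8 CPM in AAV-Fgf7 ears of rats 1 and 2, against 69.9 and 66.6 CPM in control ears. Both AAV-Fgf7 libraries were thus below both controls, and the libraries of a group lay close together. The means were 45.8 ± 2.82 CPM in AAV-Fgf7 ears and 68.2 ± 2.33 CPM in control ears (SD, n = 2 each). The log2 fold change was -0.57 (SE 0.26, edgeR unadjusted p = 0.0694, adjusted p = 0.9996), so the difference did not pass the test. It kept this direction in all 14 alternative fits, between -0.64 and -0.51. Since both AAV-Fgf7 libraries lay below both controls, leaving out 1 library could hardly reverse it. Ear against ear, the ratio of CPM was 0.627 in rat 1 (95% counting interval 0.447 to 0.874) and 0.718 in rat 2 (0.520 to 0.985). These intervals cover counting error only and not the spread between libraries. Reads without molecular identifiers are not independent molecules, so the intervals may be too narrow even for counting error.

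Fosb, the Fos relative that also gives the truncated, long-lived DeltaFosB protein, was dominated by 1 library. Counts per gene do not separate its splice forms. It had 20 and 36 counts in AAV-Fgf7 ears of rats 1 and 2, against 20 and 468 counts in control ears. In CPM these were 14.1 and 24.9 in AAV-Fgf7 ears and 15.2 and 311 in control ears. The control library of rat 2 was high and the other 3 were low, so that the groups overlapped. Between the control libraries, rat 2 stood 20.5-fold above rat 1 (95% counting interval 13.1 to 33.9), the 13th highest ratio among 6350 tested genes with a count in both. The log2 fold change between groups was -3.06 (SE 1.23, edgeR unadjusted p = 0.0462, adjusted p = 0.9996). It was -2.10 with rat as a replicate block, -1.94 by limma-voom and -1.71 on log2(FPKM + 1) by limma. It became 0.36 (adjusted p = 0.998) when the control library of rat 2 was left out. When that of rat 1 was left out it became -3.99 (adjusted p = 2.95e-05), a value that rests on the lone control library of rat 2.

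Fosl2, which encodes the Fos-related protein Fra-2, did not separate the groups. It stood at 80.5 and 56.8 CPM in AAV-Fgf7 ears of rats 1 and 2, against 53.9 and 69.9 CPM in control ears. The groups overlapped, and the AAV-Fgf7 ear was the higher in rat 1 (ratio 1.49, interval 1.10 to 2.04) but not in rat 2 (ratio 0.812, interval 0.601 to 1.09). The log2 fold change of Fosl2 was 0.15 (SE 0.30).

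Among the Jun family, which can pair with one another as well as with Fos proteins, none separated the groups. Jun, the family's strongest activator, had 153 and 186 counts in AAV-Fgf7 ears and 152 and 281 counts in control ears of rats 1 and 2. Its level in the control library of rat 2 was 187 CPM, while the other 3 libraries lay from 108 to 129 CPM. The log2 fold change of Jun was -0.35 (SE 0.28), and it was 0.039 without the control library of rat 2. Junb, which restrains proliferation in many cell types and is expressed throughout the epidermis, stood at 607 and 848 CPM in AAV-Fgf7 ears, against 614 and 726 CPM in control ears. The 2 rat 1 libraries were the lowest and the 2 rat 2 libraries the highest, and the log2 fold change was 0.12 (SE 0.23). Jund, the member least dependent on stimulation, stood at 217 and 226 CPM in AAV-Fgf7 ears, against 217 and 132 CPM in control ears. Here the control library of rat 2 was the low one, opposite to its place for Jun, and the log2 fold change was 0.35 (SE 0.28). Without that library the log2 fold change of Jund was 0.031.

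Of the immediate early genes outside AP-1, Egr1 followed the same library as Fosb. Egr1 encodes a zinc finger transcription factor that is a standard readout of ERK and SRF signalling. It had 187 and 273 counts in AAV-Fgf7 ears of rats 1 and 2, against 136 and 717 counts in control ears. In CPM the control library of rat 2 was at 477, and the others were at 132 and 189 in AAV-Fgf7 ears and 103 in the control ear of rat 1. The groups overlapped, with controls at both ends. Between the control libraries, rat 2 stood 4.62-fold above rat 1 (95% counting interval 3.84 to 5.59). The log2 fold change between groups was -0.86 (SE 0.65, edgeR unadjusted p = 0.238), and -0.51 both by limma-voom and with rat as a replicate block. It became 0.64 (adjusted p = 0.987) without the control library of rat 2 and -1.57 (adjusted p = 0.0180) without that of rat 1. The sign of the Egr1 difference was therefore set by which control library was present.

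Ier2, a short nuclear protein gene of the immediate early class, stood at 40.3 and 32.5 CPM in AAV-Fgf7 ears, against 28.1 and 34.6 CPM in control ears. The libraries of both groups interleaved, and the log2 fold change was 0.21 (SE 0.32). Nr4a1, which encodes the orphan nuclear receptor Nur77, had 2 and 6 counts in AAV-Fgf7 ears of rats 1 and 2, against 0 and 16 counts in control ears. The highest count was again in the control library of rat 2. The level there was 4.68-fold that of the control library of rat 1, taking 3 counts as the limit that a count of 0 allows. That ratio leaves out the counting error of the 16 counts. In rat 2 the AAV-Fgf7 ear stood at 0.390 of the control ear, with a counting interval of 0.125 to 1.05 that includes no difference. Atf3, a stress-induced bZIP factor of the ATF/CREB family, had 0 and 1 counts in AAV-Fgf7 ears and 4 and 1 counts in control ears, too few for a comparison.

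Promoter sequence is shown for the members whose CRE-type letters could be placed, since CREB and related bZIP factors act on immediate early genes beside SRF. RefSeq promoters of the rat assembly GRCr8 matched 7 of the 10 members (not Fos, Jun and Atf3), and the 250 bases before each start were searched on both strands for 4 motifs. The full CRE, TGACGTCA, was found in Jund and Ier2 and in 1.59% of 33469 promoters of that length. The CRE-like TGCGTCA, chosen after the sequences were read, occurred 4 times in Nr4a1, beginning 248, 228, 84 and 55 bases before the start, and was present in 1.66% of promoters. The CArG box occurred 2 times in Egr1 and was present in 1.5% of promoters, and the AP-1 site TGACTCA was found in none of the 7 and in 4.05% of promoters. No motif overlapped another in these members. The starts used for Fosb and Nr4a1 do not lie at the edge of their annotated genes, so other transcripts may begin elsewhere. Capitals mark the motif, in the gene's own direction. The Jund stretch lies at chr16:18769922-18770021 on the minus strand, the Ier2 stretch at chr19:40399273-40399372 on the plus strand, and the Nr4a1 stretches, which hold the 2 matches nearest the start, at chr7:134260048-134260077 and chr7:134260078-134260107 on the plus strand.
Jund: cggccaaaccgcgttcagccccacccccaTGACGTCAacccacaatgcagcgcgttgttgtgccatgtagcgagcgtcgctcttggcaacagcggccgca
Ier2: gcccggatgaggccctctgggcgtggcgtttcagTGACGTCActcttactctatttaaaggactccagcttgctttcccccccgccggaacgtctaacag
Nr4a1, from 90 to 61 bases before the start: gccgtgTGCGTCAgtggcgcccccgcccct
Nr4a1, from 60 to 31 bases before the start: ctccaTGCGTCAcggagcgcttaagaggtg
A match in these letters is a description of the sequence and not evidence of a bound site.

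Ear against ear, the ratios past 2-fold among the tested members were those of Fosb and Egr1 in rat 2. In rat 1, 0 of 8 tested members differed 2-fold or more in either direction, against 6.94% of all genes tested higher and 4.74% lower. In rat 2, 2 of 8 (Fosb and Egr1) were lower 2-fold or more in the AAV-Fgf7 ear, against 9.56% of all genes tested, and 0 were higher, against 7.41%. The AAV-Fgf7 ear of rat 2 stood at 0.0800 of the control ear for Fosb (counting interval 0.0554 to 0.112) and at 0.396 for Egr1 (0.343 to 0.456). In rat 1 the same ratios were 0.930 (0.475 to 1.82) for Fosb and 1.28 (1.02 to 1.61) for Egr1. For Egr1 the ears thus differed in opposite directions in the 2 rats. Fos, Fosb and Jun were lower in the AAV-Fgf7 ear of both rats, which is 3 of 8 members against 19.9% of all genes tested, although the intervals of Fosb and Jun in rat 1 include no difference. Fosl2, Egr1 and Ier2 were higher in the AAV-Fgf7 ear of rat 1 and lower in that of rat 2, which is 3 of 8 against 29.2% of all genes tested. The intervals of Ier2 in both rats and of Fosl2 in rat 2 include no difference. Junb and Jund, 2 of 8, were lower by a small margin in rat 1 and higher in rat 2, against 29.9%. Their intervals in rat 1 include no difference. In 0 of 8 was the AAV-Fgf7 ear higher in both rats, against 21.0%. With 1 library a side within a rat, these ratios carry no test.

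**Figure D2:**
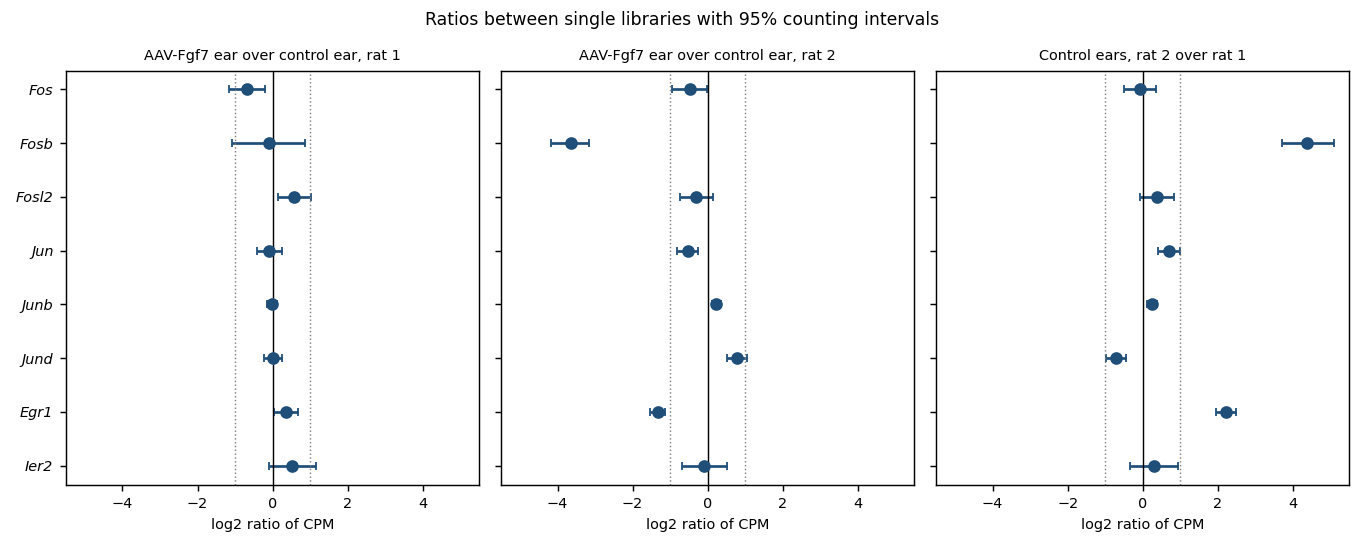
Log2 ratio of CPM between single libraries for the 8 tested members, with bars for 95% counting intervals and dotted lines at 2-fold: AAV-Fgf7 ear over control ear in rat 1 (left) and rat 2 (middle), and control ear of rat 2 over that of rat 1 (right). Fosb and Egr1 lie past 2-fold in the middle and right panels, in opposite directions, and both panels share the control library of rat 2.

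The spread within the control group was larger than the difference between groups for Fosb and Egr1. Between the control libraries, 2 of 8 members were 2-fold or more higher in rat 2 (9.73% of all genes tested) and 0 were 2-fold or more lower (7.55%). Between the AAV-Fgf7 libraries, 0 of 8 differed 2-fold or more, against 4.79% of all genes tested higher and 6.78% lower in rat 2. The control library of rat 2 was the highest of the 4 for 3 of 8 members (Fosb, Egr1 and Jun), against 29.3% of all genes tested, and the lowest for Jund. Fos, Junb, Ier2 and Fosl2 were not highest there. For several tissues, summed marker levels also differed between that library and the others. The summed level of skeletal muscle markers (15 of 16 with a count, Tnnc2 at 0) was 31049 and 15518 CPM in AAV-Fgf7 libraries of rats 1 and 2, against 14369 and 59926 CPM in control libraries. Hair follicle markers (18 of 20 with a count, Krt35 and Krt85 at 0) summed to 4932 and 296 CPM in AAV-Fgf7 libraries and 72.9 and 1611 CPM in control libraries. Their highest sum was thus in the AAV-Fgf7 library of rat 1. Cartilage markers (11 of 12, Matn1 at 0) summed to 1197 and 686 CPM in AAV-Fgf7 libraries and 673 and 2243 CPM in control libraries. Adipocyte markers (3 of 6, Adipoq, Cidec and Lipe at 0) summed to 69.9 and 41.5 CPM in AAV-Fgf7 libraries and 41.0 and 165 CPM in control libraries. Macrophage markers (5 of 7, Cd14 and Itgam at 0) were lowest in the control library of rat 2. Their sums were 205 and 278 CPM in AAV-Fgf7 libraries and 382 and 146 CPM in control libraries. Suprabasal keratinocyte markers (5 of 10) were lowest there too, with 892 and 2627 CPM in AAV-Fgf7 libraries and 976 and 606 CPM in control libraries. The 1 T cell marker with a count, Lck, stood at 13.4 and 35.3 CPM in AAV-Fgf7 libraries and 41.0 and 2.0 CPM in control libraries. Endothelium markers summed to 121 and 118 CPM in AAV-Fgf7 libraries and 128 and 160 CPM in control libraries. Smooth muscle and pericyte markers summed to 351 and 372 CPM in AAV-Fgf7 libraries and 291 and 408 CPM in control libraries. Both were highest in the control library of rat 2, by smaller margins than the skeletal muscle sum. Mast cell and basal keratinocyte sums were lowest there, the latter close to the control library of rat 1. Fibroblast and Schwann cell sums did not set that library apart. Dermal fibroblast markers summed to 39959 and 27262 CPM in AAV-Fgf7 libraries and 34178 and 39232 CPM in control libraries. Schwann cell markers summed to 950 and 1338 CPM in AAV-Fgf7 libraries and 1117 and 1138 CPM in control libraries. The part of these tissues in the Fos, Fosb and Egr1 values was not tested.

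Per unit length, transcripts of the Jun and Fos family members of the set were mostly Junb and Jund. The authors' FPKM, which divides counts by the length of the listed gene model, was used for levels between genes. Junb was the highest member in every library, at 258 and 362 FPKM in AAV-Fgf7 ears of rats 1 and 2 and 263 and 310 FPKM in control ears, and did not overlap any other member. Jund followed at 127 and 133 FPKM in AAV-Fgf7 ears, against 128 and 77.5 FPKM in control ears, and in the control library of rat 2 it was passed by Egr1 at 104 FPKM. Egr1 and Jun (33.1 to 57.6 FPKM) overlapped in range, as did Fos (18.2 to 29.3 FPKM) and Ier2 (18.2 to 25.9 FPKM), so neither order is beyond the spread. Fosb (2.21 to 49.0 FPKM) spanned the whole range of Fosl2 (5.49 to 8.14 FPKM). Nr4a1 and Atf3 held the last 2 places in all 4 libraries, at no more than 2.98 and 1.39 FPKM.

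Summed over the family, Jun, Junb and Jund made 419 and 534 FPKM in AAV-Fgf7 ears and 427 and 445 FPKM in control ears. Fos, Fosb and Fosl2 made 28.6 and 29.6 FPKM in AAV-Fgf7 ears, against 37.1 and 83.8 FPKM in control ears. Jun family transcript exceeded Fos family transcript 14.7-fold and 18.1-fold in AAV-Fgf7 ears of rats 1 and 2, against 11.5-fold and 5.31-fold in control ears. Both AAV-Fgf7 ratios were above both control ratios, but no share over all genes can be set beside such a ratio. With 2 libraries against 2, an exact permutation test could not go below 0.333. The lowest ratio, 5.31, was that of the control library of rat 2, where Fosb was high. Basal keratinocyte markers (10 of 10 with a count) also lay higher in both AAV-Fgf7 libraries, with sums of 1990 and 3742 CPM, against 1298 and 1247 CPM in control libraries, and their part in the Fos and Fos family values was not tested. Fosb made 7.75% and 13.2% of the Fos family sum in AAV-Fgf7 ears, and 6.45% and 58.4% in control ears, so that the family's most abundant member was Fosb in the control library of rat 2 and Fos in the other 3. No test was made of these sums, and the values compare levels per length of mouse gene models.

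**Figure D3:**
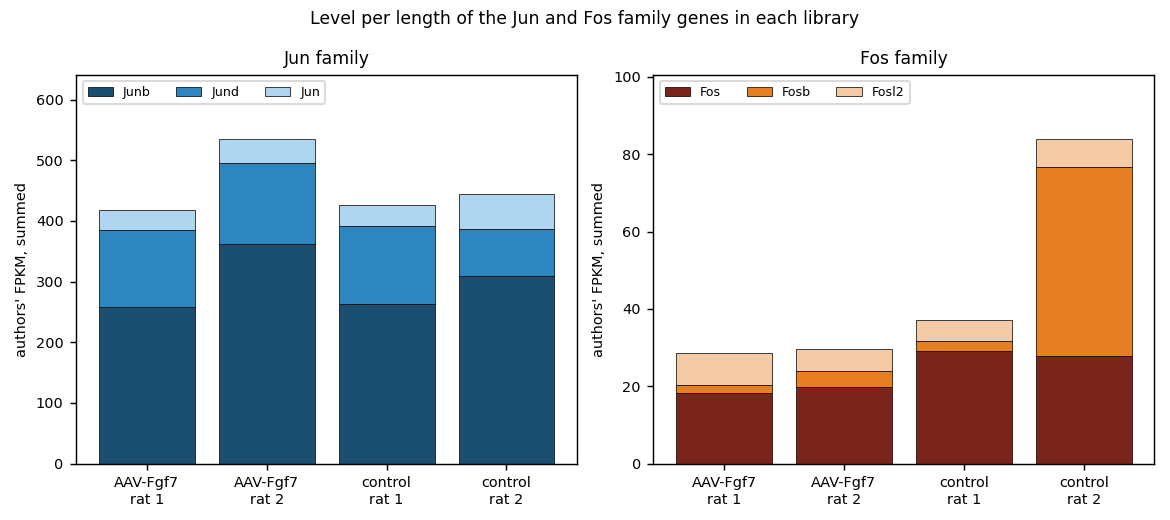
Stacked FPKM of the Jun family (left) and the Fos family (right) in each library, on separate linear axes from 0. The Jun sums lie between 419 and 534 FPKM, while the Fos sum of the control library of rat 2 reaches 83.8 FPKM through its Fosb segment.

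Other AP-1 and bZIP partner genes (12 in the list, 7 tested) did not pass the test in either direction, with a median log2 fold change of -0.014. Jdp2, a repressor that pairs with Jun, had a log2 fold change of -0.45 (SE 0.27), from 42.4 and 46.4 CPM in AAV-Fgf7 ears and 64.5 and 56.6 CPM in control ears. Atf2, a Jun partner activated by stress kinases, stood at -0.42 (SE 0.22), from 96.0 and 98.3 CPM in AAV-Fgf7 ears and 144 and 115 CPM in control ears. Jdp2 and Atf2, 2 of the 7, had both AAV-Fgf7 libraries below both controls, against 13.3% of all genes tested. The small Maf gene Maff stood at 0.22 (SE 0.51) and was the list's 1 gene above both controls, against 14.8% of all genes tested. Atf7 stood at -0.064 and Maf at 0.0061. Fosl1, Batf, Batf2 and Batf3 had no count in any library, which under mouse gene models does not show that they were silent.

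Other immediate early regulators (32 in the list, 21 tested) likewise had 0 genes past the edgeR threshold, 9 with positive and 12 with negative log2 fold changes, and a median of -0.087. Nr4a2, a relative of Nr4a1, had 81 and 132 counts in AAV-Fgf7 ears, against 94 and 287 counts in control ears, a log2 fold change of -0.82 (SE 0.49). Its high library was again the control of rat 2. Nr4a3, the third gene of that receptor family, was below the filter and was picked after its values were seen. It had 3 and 6 counts in AAV-Fgf7 ears and 4 and 21 counts in control ears. Egr2, a zinc finger relative of Egr1, went the other way with 29.0 and 49.2 CPM in AAV-Fgf7 ears, against 29.6 and 22.6 CPM in control ears (log2 fold change 0.58, SE 0.39), and its lowest value was in the control library of rat 2. Egr3 stood at 0.26 (SE 0.24) and Cebpb, a bZIP factor of differentiation and inflammation, at 0.20 (SE 0.20). Bhlhe40, a basic helix-loop-helix repressor, stood at -0.39 (SE 0.30) and Id2, an inhibitor of such factors, at -0.26 (SE 0.24). The control library of rat 2 was the highest for 6 of the 21 genes, or 28.6%, beside the 29.3% of all genes tested.

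**Figure D4:**
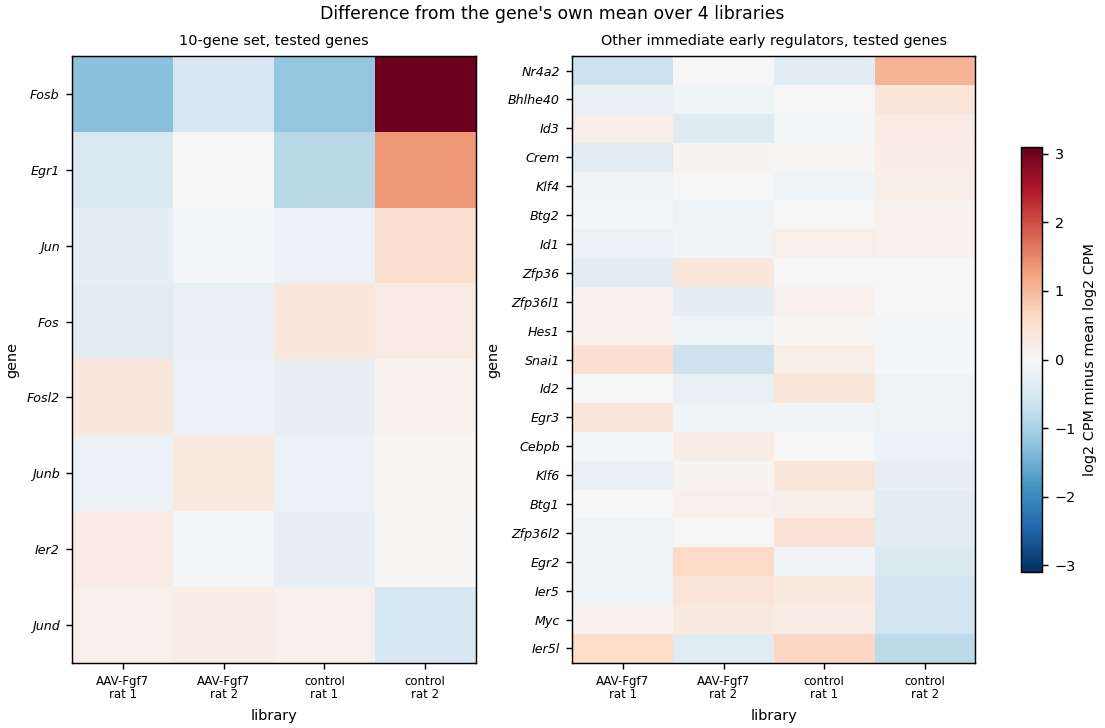
Log2 CPM of each tested gene minus its own mean over the 4 libraries (colour), for the 10-gene set on the left and other immediate early regulators on the right, with libraries in columns. Fosb and Egr1 on the left and Nr4a2 on the right are raised in the control library of rat 2, where Jund, Ier5l and Myc are low.

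Immediate early genes for signalling and secreted products (39 in the list, 17 tested) also had 0 genes past the threshold, with a median log2 fold change of -0.16. Cyr61 and Ctgf encode matricellular proteins that SRF and YAP induce. Cyr61 had 13 and 26 counts in AAV-Fgf7 ears, against 26 and 55 counts in control ears, a log2 fold change of -1.05 (SE 0.51, edgeR unadjusted p = 0.0846). Ctgf stood at 172 and 138 CPM in AAV-Fgf7 ears, against 188 and 250 CPM in control ears, a log2 fold change of -0.50 (SE 0.24). After scaling, both genes had the AAV-Fgf7 libraries below both controls. Errfi1, a feedback inhibitor of the EGF receptor, stood at -0.95 (SE 0.69), from 8 and 14 counts in AAV-Fgf7 ears and 9 and 34 counts in control ears. Above both controls stood Gadd45b, a stress response gene, at 0.40 (SE 0.31), the polo-like kinase gene Plk2 at 0.76 (SE 0.60) and the antiproliferative gene Tob1 at 0.32 (SE 0.27). Of the 17 genes, 4 lay above both controls and 4 below, against 14.8% and 13.3% of all genes tested. Inflammatory early genes such as Il6, Ptgs2, Cxcl1, Cxcl2 and Ccl2 had no count in any library. They may still have been transcribed, since rat reads were listed under mouse gene models.

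No upstream gene passed the edgeR test. Of 11 SRF, ternary complex factor and CREB genes, 7 were tested, 0 passed, and their log2 fold changes lay between -0.30 for Elk3 and 0.30 for Mkl1, a coactivator of SRF. Srf itself stood at 310 and 386 CPM in AAV-Fgf7 ears, against 327 and 325 CPM in control ears, a log2 fold change of 0.093 (SE 0.20). Creb1 stood at 0.13 (SE 0.21), Crtc2 at -0.14 (SE 0.23) and Elk1 at -0.16 (SE 0.30). Of 26 MAP kinase cascade genes, 20 were tested and 0 passed, with a median of 0.067. Mapk13, a p38 kinase of epidermis, stood at 0.66 (SE 0.40) and Mknk2, a kinase downstream of ERK, at 0.23 (SE 0.26). Mapk14 stood at -0.69 (SE 0.60), with 55 and 15 counts in AAV-Fgf7 ears and 60 and 51 counts in control ears, where the AAV-Fgf7 library of rat 2 was the low one. Araf, a kinase that activates the cascade, stood at -0.22 (SE 0.20). Transcript levels of kinases do not measure their activity.

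**Figure D5:**
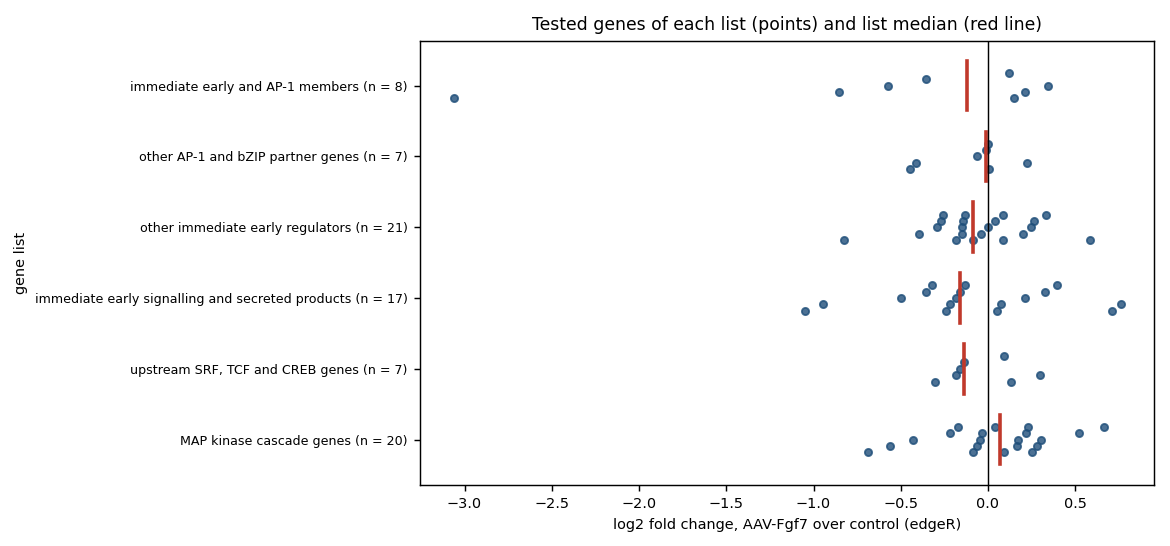
Log2 fold change of AAV-Fgf7 over control ears for each tested gene (points) in the 10-gene set and the 5 related lists, with list medians as red lines. The medians lie between -0.16 and 0.067, and Fosb at -3.06 is the point farthest from 0.

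As a summary profile, the 8 tested members were centred on their own mean log2 CPM and averaged. The mean profile was -0.24 and -0.060 in AAV-Fgf7 ears of rats 1 and 2, and -0.30 and 0.60 in control ears. The 0.60 of the control library of rat 2 rested largely on Fosb (3.03) and Egr1 (1.34). The other tested members lay between -0.55 (Jund) and 0.50 (Jun) in that library, so the profile is not shared by the whole set. Jun lay nearest to this profile, with a root mean square difference of 0.0808 on the log2 scale, and Fosb farthest, at 1.42. Outside the set, the 6 tested genes nearest to it over the 4 libraries were Lats1, Ptprs, St13, Sema6a, Gm13342 and Lrrc4c, at 0.0378 to 0.0728. Picked by that profile, each was by that choice highest in the control library of rat 2. Lats1, a Hippo pathway kinase gene, was at 28.0 CPM there against 15.2 to 18.0 CPM in the other libraries. With 4 libraries and 6370 genes such likeness describes the libraries and nothing more.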

How the data were processed

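The authors deposited raw counts per gene and FPKM for 4 libraries. The build named in the submitters' processing notes is Rnor_6.0 (rn6), yet all 54532 deposited rows carry mouse Ensembl identifiers. The aligner, the counter and the strand setting were not given in the sources used here. Rat reads of genes that differ more from mouse may be lost, and reads may be split between near-identical copies. Per the labels' protocols, libraries were made by poly(A) selection or ribosomal RNA depletion, without saying which.

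Genes were filtered with filterByExpr (6370 kept, 98.9% of counts), scaled by TMM (0.948 to 1.03) and tested with the quasi-likelihood test of edgeR 4.0.16 (R 4.3.3), two-sided, with adjustment over all genes tested at 0.05. The method was tested on simulated data. The standard error is the log2 fold change over the root of F. The common biological coefficient of variation was 29.1%. Nothing says how the libraries of a group were prepared, so p-values measure the spread between 2 libraries, and a single-gene exact permutation test could not go below 0.333. No 2 libraries agreed within sampling noise (chi-square per degree of freedom 6.26 to 20.5). Ratios of single libraries carry exact binomial (Clopper-Pearson) 95% intervals, and a count of 0 was bounded at 3 counts.

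Titles give both ears of a rat the same number, which pairs libraries by animal. Deviations of same-numbered libraries from group means correlated at -0.30 over genes, so the ears of a rat tended to deviate in opposite directions. Chi-square per degree of freedom was 9.47 between the ears of rat 1 and 20.5 between those of rat 2. It was lower between ears of different number, at 6.26 (AAV-Fgf7 rat 2, control rat 1) and 8.38 (AAV-Fgf7 rat 1, control rat 2). Whether the libraries are rightly paired was not tested. Alternatives were rat as a replicate block, RLE factors, library totals, other filters, DESeq2 1.42.0, limma-voom (limma 3.58.1), log2(FPKM + 1) and log2(FPKM + 0.1), and leaving out each library. Named were the 10 members, Fgf7, up to 3 tested genes of lowest p per direction and list, and the 6 genes nearest in profile (log2 CPM, prior count 2). The members and lists were chosen with earlier results of these data known. Some genes that this rule names are not reported here.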

Additional observations from a re-analysis of the deposited data

How the results depend on the processing

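The count of 0 changed genes became 3 of 12902 without the filter on low counts and 4 with DESeq2, and it ranged from 0 to 19 when 1 library was left out, with 19 only without the control library of rat 1. With rat as a replicate block it stayed 0, with 75 genes at an unadjusted p under 0.05 against 148 without the block, and the block changed no call of a member. The number of members called was 0 except without the control library of rat 1, where it was 2 (Fosb and Egr1), a range of 0 to 2. Such a fit assumes that the lone library varies like the other group. Leaving out 1 library in turn moved the log2 fold change across 0 for Fosb (-3.99 to 0.36), Egr1 (-1.57 to 0.64), Jun (-0.66 to 0.039), Fosl2 (-0.12 to 0.38) and Junb (-0.14 to 0.34). Fos stayed below 0 and Jund and Ier2 above it in all 14 alternatives. For Fos, whose groups were separate, leaving out 1 library could hardly reverse the sign. Fosl2 was below 0 without the AAV-Fgf7 library of rat 1 (-0.12) and without the control library of rat 1 (-0.026), and Junb without the AAV-Fgf7 library of rat 2. With library totals only, 1 member, Ier2, lay above both controls. Against the remaining control alone, a setting chosen after seeing the data, the members above ranged from 1 to 3 and those below from 1 to 4. The share over all genes tested was not computed for this setting. A lone control is easier to lie beyond than both, so these counts are not a result about the members. No gene of the 5 related lists was called in any setting. Counts of 0 to 16 for Nr4a1 and 0 to 4 for Atf3 put both below the filter, so the groups were not tested for them.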
